A study of Homo sapiens with 3 samples.

Results

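The autophagy and mitophagy genes described here are 36 human genes whose products sense low energy, start the autophagosome, lipidate the ATG8 proteins, choose the cargo or mark damaged mitochondria. They were listed by role and found by gene identifier among the 25702 identifiers that have a read count, and 35 of them were among the 12879 genes that reached 10 counts in some library and were tested. The counts come from poly(A)-selected RNA of Molm13 cells, a human acute myeloid leukemia (AML) line that carries the FLT3-ITD mutation, collected 6 h after addition of DMSO (the vehicle), 50 nM pyrvinium pamoate or 100 nM pyrvinium pamoate. Pyrvinium is an anthelmintic that acts on mitochondria, and the transcriptome was profiled to find pathways that respond to it. Each condition is 1 library of 1 cell line, so no difference below has a replicate check. Tests and intervals compare the libraries, hold counting error only and do not speak for the conditions. In bulk RNA, fewer cells expressing a gene and less RNA of it per cell cannot be told apart.

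Autophagy delivers cytoplasm to the lysosome in a double membrane vesicle. AMPK, the energy sensor, and mTORC1, the nutrient sensor, act in opposite directions on the ULK1 kinase complex, which switches on the class III PI3-kinase. ATG9 vesicles, ATG2 lipid transfer proteins and WIPI proteins expand the membrane, a pair of ubiquitin-like conjugation systems attaches ATG8 proteins (LC3 and GABARAP) to it, and receptors tie ubiquitinated cargo to ATG8. Mitophagy is the same process aimed at mitochondria, through the kinase PINK1 or through receptors in the outer mitochondrial membrane such as FUNDC1. Much of this control works on proteins by phosphorylation, cleavage and lipidation, which counts of RNA do not measure.

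The libraries held 23165771 (DMSO), 22677038 (50 nM) and 24075123 (100 nM) counts in genes, and between 15355 and 15685 genes had at least 1 count in a library. The 36 genes together took 0.195%, 0.188% and 0.191% of these counts. All 8 AML markers examined (FLT3, CD33, PTPRC, SPI1, MPO, HOXA9, MEIS1 and LYZ) had at least 100 counts in all libraries. Of 8 markers of other cell types, EPCAM, KRT19 and CD3E were at 0 in all libraries. The 8 summed to 163, 185 and 202 counts, of which the endothelial and leukocyte gene PECAM1 gave 156, 159 and 191. The erythroid gene HBB had 16 counts in the 50 nM library and 0 in the others. Across the scalings tried, the log2 ratios between libraries moved by at most 0.00499.

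No gene of the set was called at the 2-fold threshold in any comparison. At 100 nM against DMSO, 0 of the 35 tested genes combined a 2-fold difference with an adjusted p at or under 0.05 (exact binomial test of the counts of the 2 libraries, Benjamini-Hochberg over all tested genes), where 2.2% of all tested genes did. A 1.5-fold threshold gave 1 gene, GABARAPL1, where 6.71% of all tested genes passed. Without a fold threshold, 7 genes were higher (20%, against 21.1% of all tested genes) and 8 were lower (22.9%, against 22.0%). These shares lie near the background, so the set did not stand apart by how many of its genes differed. The 7 higher genes were PRKAG1, BECN1, ATG4B, ATG10, MAP1LC3B, NBR1 and CALCOCO2. The 8 lower genes were PIK3R4, ATG9A, WIPI2, ATG3, ATG5, GABARAP, GABARAPL1 and GABARAPL2, and the other 20 did not pass. The background of all tested genes includes many with few counts. Of the 9979 genes whose mean over the libraries reached 100 counts, 69 passed at 2-fold and 460 at 1.5-fold. Without a fold threshold, 2434 of them were higher and 2689 lower. Of the 32 genes of the set at that level, 0 passed at 2-fold or 1.5-fold, 7 were higher and 7 lower.

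At 50 nM against DMSO, 0 genes passed at 2-fold, where 0.955% of all tested genes did, and 0 passed at 1.5-fold, where 2.58% did. With no fold threshold, 4 genes (PRKAG1, BECN1, ATG7 and CALCOCO2) were higher, 11.4% against 14.3% of all tested genes, and 7 (ULK1, RB1CC1, PIK3R4, WIPI2, ATG3, ATG5 and GABARAP) were lower, 20% against 13.9%. Between the doses, 100 nM against 50 nM, again 0 genes passed at 2-fold (0.497% of all tested genes) and 0 at 1.5-fold (1.11%). PRKAG1, ULK1, MAP1LC3B and NBR1 were higher at 100 nM than at 50 nM, 11.4% of the set against 7.69% of all tested genes. GABARAP alone was lower, 2.86% of the set against 9.25%. Of the 9979 genes whose mean reached 100 counts, 20 passed at 2-fold and 136 at 1.5-fold at 50 nM against DMSO. Between the doses 6 and 48 of them did. The 3 comparisons share libraries, so their calls are not independent.

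The counts bounded most of these differences closely. At 100 nM against DMSO, the 95% interval lay wholly within 1.5-fold of no difference for 30 of 35 genes and wholly within 2-fold for 32. The exceptions at 2-fold were WIPI1, GABARAPL1 and OPTN, which had 20, 63 and 29 counts in the DMSO library. For the 32 genes whose mean over the libraries reached 100 counts, the intervals reached 0.06 to 0.33 on the log2 scale to each side, with a median of 0.12. At 50 nM, 30 genes lay within 1.5-fold of DMSO and 33 within 2-fold. A 2-fold difference between these libraries was therefore detectable for most of the set.

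Most ratios of the set were small. The median log2 ratio over the 35 genes was -0.02 at 100 nM and -0.06 at 50 nM against DMSO, and 0.02 between the doses, beside medians of -0.00235, 0.000711 and 0.000919 over all tested genes. Where the mean reached 100 counts, the median absolute log2 ratio of the set (32 genes) was 0.12 at 100 nM against 0.16 for all 9979 such genes, and 0.12 against 0.11 at 50 nM. The single ratios ran from -0.94 to 0.44 at 100 nM and from -0.65 to 0.26 at 50 nM.

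**Figure D1:**
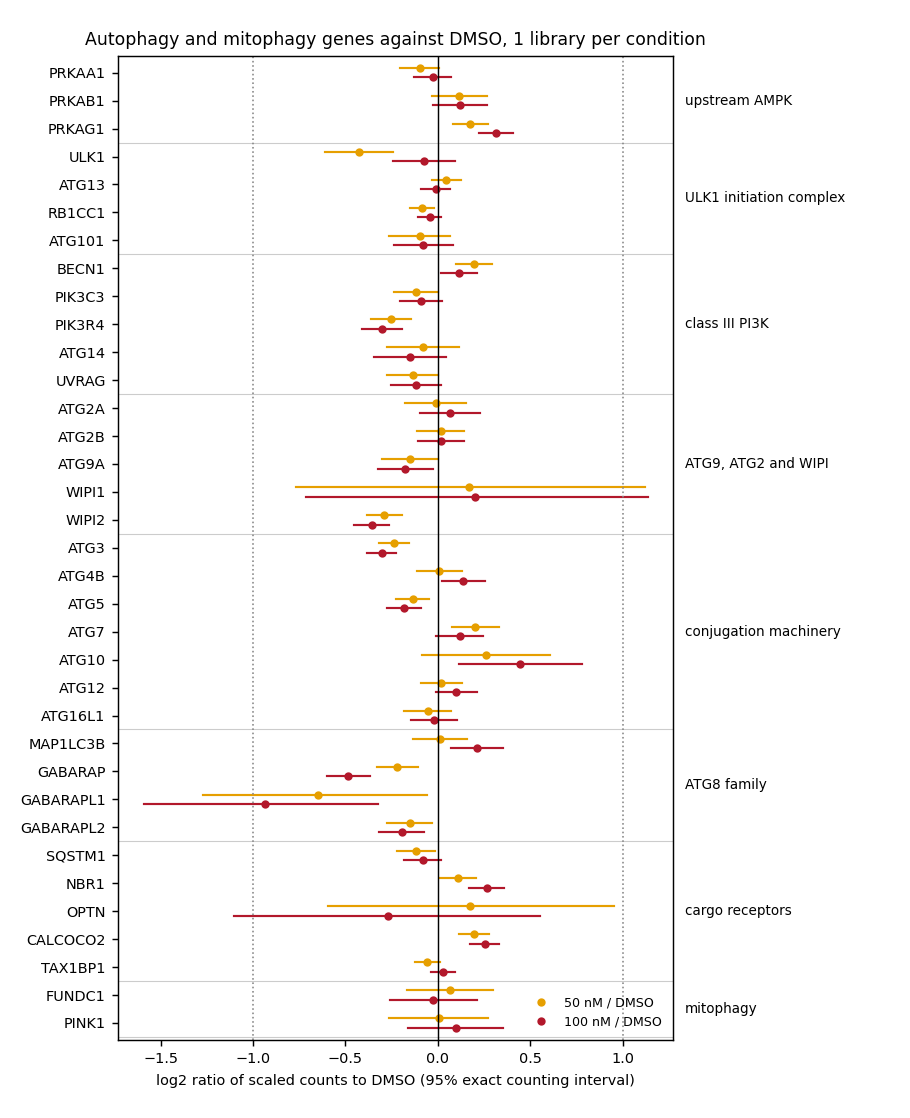
Log2 ratio of scaled counts to the DMSO library for the 35 tested genes, grouped by role, at 50 nM (orange) and 100 nM (red). Points are ratios, horizontal lines are 95% exact counting intervals and dotted lines mark 2-fold. All points lie inside the dotted lines, and the widest intervals belong to WIPI1, OPTN and GABARAPL1.

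**Figure D2:**
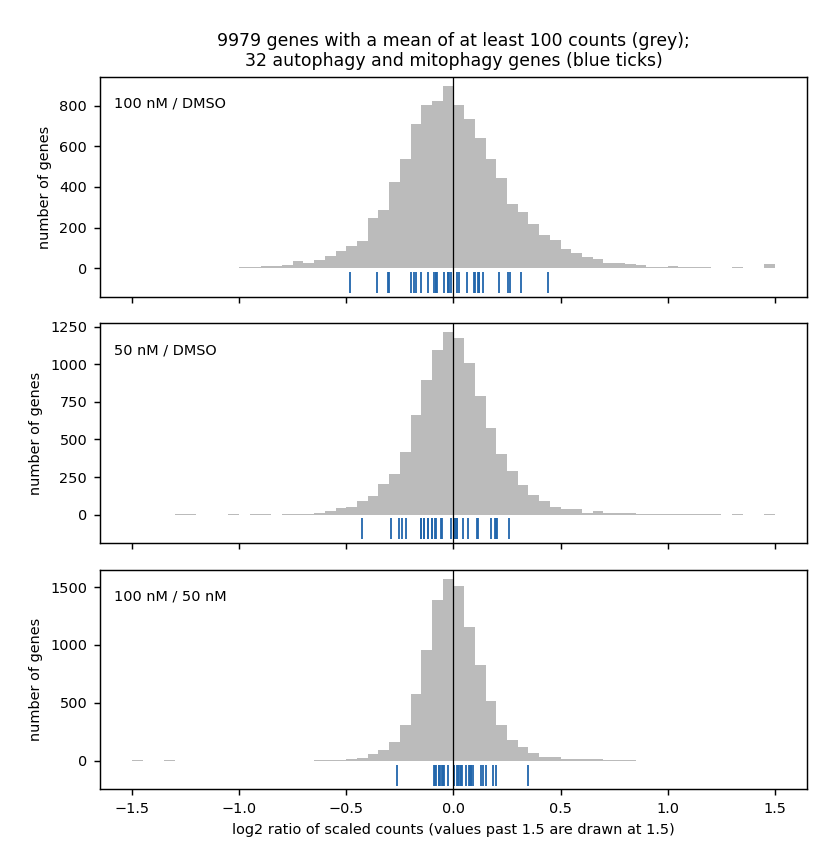
Histograms of log2 ratios for the 9979 genes whose mean reached 100 counts (grey), with the 32 autophagy and mitophagy genes at that level as blue ticks under each panel, for 100 nM and 50 nM against DMSO and for 100 nM against 50 nM. Most ticks lie near the middle of each distribution. Further out are GABARAP (-0.48, leftmost) and ATG10 (0.44, rightmost) in the upper panel and ULK1 (-0.43, leftmost) in the 50 nM panel.

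The levels of the genes spanned a wide range in the DMSO library and kept nearly the same order in the 100 nM library. Scaled to a common library size (CPM) and divided by gene model length in kilobases, ATG3 was highest in the DMSO library at 96.5, followed by GABARAP at 70.1, GABARAPL2 at 48.8, TAX1BP1 at 47.6 and PRKAG1 at 41.4. Of the 36 genes, 23 were at 10 or above. The lowest were ATG10 at 2.31, GABARAPL1 at 1.45, WIPI1 at 0.448, OPTN at 0.348 and ULK2 at 0.0283. Among the 35 pairs of neighbours in this order, 21 had overlapping 95% Poisson intervals, so much of the order is not resolved by the counts. No gene moved by more than 4 places between the DMSO and 100 nM libraries. The closely related kinases ULK1 and ULK2 were far apart, and ULK2 had 6, 1 and 3 counts (DMSO, 50 nM and 100 nM), too few for a ratio.

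**Figure D3:**
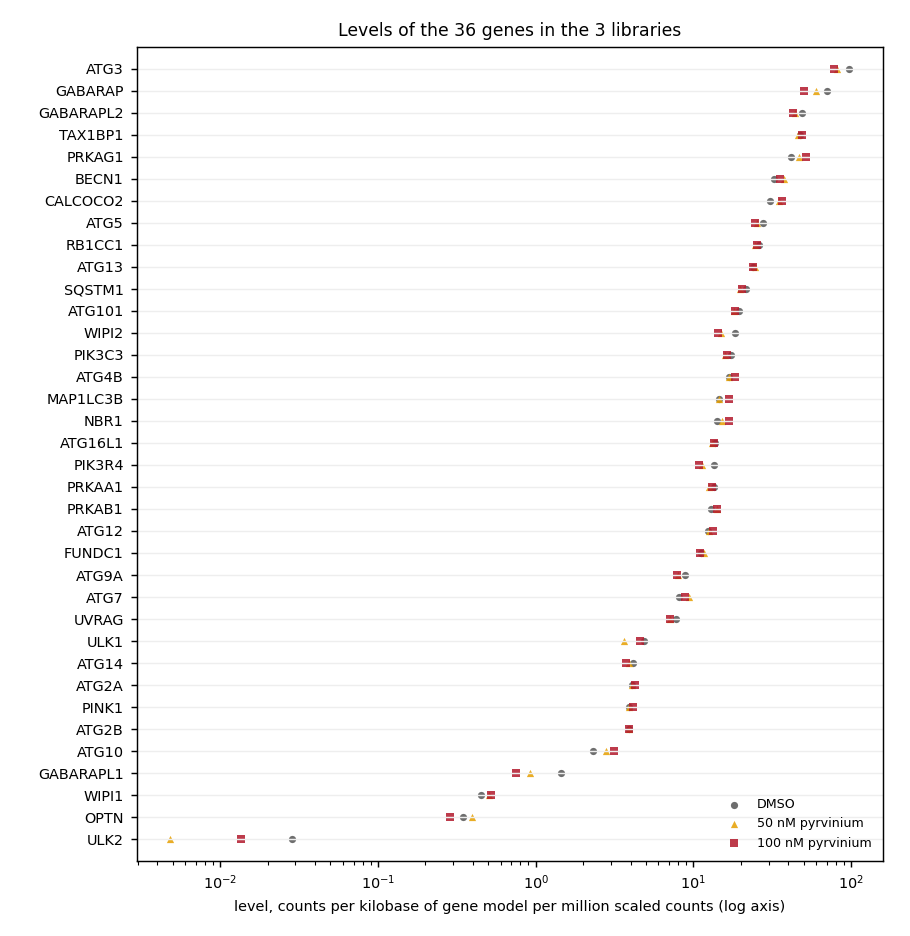
Level of each of the 36 genes in the DMSO (grey), 50 nM (orange) and 100 nM (red) libraries, as CPM per kilobase of gene model on a log axis, ordered by the DMSO library. The 3 symbols of a gene lie close together, with ULK2 (6, 1 and 3 counts) and GABARAPL1 the most spread.

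The ATG8 family was the group with the lowest summed ratio. Its 4 genes encode the small ubiquitin-like proteins that are joined to phosphatidylethanolamine on the growing membrane, and their summed counts gave a log2 ratio of -0.21 (95% interval -0.28 to -0.14) at 100 nM and -0.15 at 50 nM. The sum of the ATG9, ATG2 and WIPI group was close, -0.17 (-0.23 to -0.11) and -0.15. The intervals of both groups at 100 nM overlap, so their rank is not resolved. GABARAP holds much of the fall of the ATG8 sum. From DMSO to 100 nM its counts went from 1450 to 1078, while the sum went from 3413 to 3065. The 4 ATG8 genes did not move together: 3 GABARAP subfamily genes were lower at 100 nM and MAP1LC3B, the LC3 gene most used as an autophagosome marker, was higher.

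GABARAP (Entrez 11337; hg19, chromosome 17, 7143738 to 7145753, minus strand) had 1450 (DMSO), 1215 (50 nM) and 1078 (100 nM) counts. The order followed the dose, and GABARAP fell in each of the 3 comparisons. Its log2 ratio was -0.48 (-0.60 to -0.37) at 100 nM and -0.22 (-0.33 to -0.11) at 50 nM against DMSO, and -0.26 between the doses. Of all tested genes, 16.3% had a larger absolute ratio at 100 nM. GABARAPL1 (Entrez 23710; chromosome 12, 10365489 to 10375727, plus strand), a close relative, had 63, 39 and 34 counts. It was low in all libraries, and its log2 ratio of -0.94 at 100 nM had a wide interval, -1.59 to -0.32. At 50 nM the ratio of -0.65 did not pass (adjusted p = 0.0917, exact binomial test). GABARAPL2, whose product was first known as a Golgi transport factor, had 1133, 995 and 1029 counts, a log2 ratio of -0.20 at 100 nM and of -0.15 at 50 nM, of which the first passed.

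MAP1LC3B (Entrez 81631; chromosome 16, 87425801 to 87438380, plus strand) had 767, 755 and 924 counts in the same order. The first 2 libraries were near each other and the 100 nM library was higher, with a log2 ratio of 0.21 (0.07 to 0.35). A second locus bears on this value. MAP1LC3B2 on chromosome 12 has a coding sequence that differs from that of MAP1LC3B at 2 of 375 bases, and the longest identical run between them, 307 bases, is longer than the 75-base reads. The first 90 coding bases of both loci (GRCh37, plus strand, within chr16:87426034-87436700 and chr12:117013748-117014122) show how little a read has to tell them apart, with the differing base in capitals.
MAP1LC3B: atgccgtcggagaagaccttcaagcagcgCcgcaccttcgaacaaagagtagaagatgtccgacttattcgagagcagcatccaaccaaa
MAP1LC3B2: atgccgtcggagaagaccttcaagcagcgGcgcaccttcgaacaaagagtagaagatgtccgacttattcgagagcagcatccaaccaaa

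MAP1LC3B2 was counted at 228, 208 and 173, a log2 ratio of -0.45 (-0.75 to -0.16) at 100 nM, the opposite direction to MAP1LC3B. Summed over both loci the counts were 995, 963 and 1097, with a log2 ratio of 0.08 (-0.04 to 0.21), an interval that includes 0. How the counting split reads shared by both loci was not tested, so the higher value of MAP1LC3B is uncertain. The GABARAP genes are less alike. GABARAPL3, the copy of GABARAPL1, had 0 counts in all libraries, which allows up to 3 counts in each. Its transcript sequence differs from the coding sequence of GABARAPL1 at 16 of 351 aligned bases. GABARAP and GABARAPL1 share 76.6% of coding bases. Their first 90 coding bases (GRCh37, within chr17:7144176-7145649, minus strand, and chr12:10365729-10374448, plus strand) differ at 24 positions, in capitals.
GABARAP: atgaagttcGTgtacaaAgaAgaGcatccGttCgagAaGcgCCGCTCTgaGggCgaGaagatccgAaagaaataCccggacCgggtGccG
GABARAPL1: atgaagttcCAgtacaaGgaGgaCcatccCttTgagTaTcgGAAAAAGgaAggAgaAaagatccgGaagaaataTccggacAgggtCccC

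**Figure D4:**
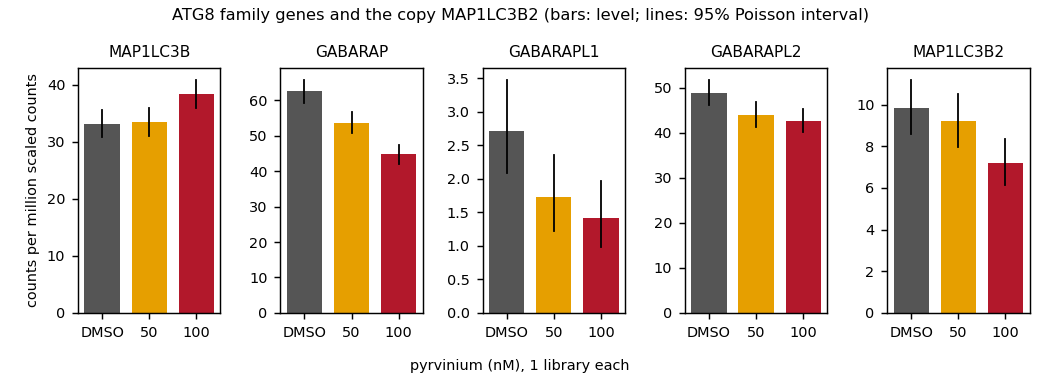
Counts scaled to a common library size (CPM) of the 4 ATG8 genes and the copy MAP1LC3B2 in the DMSO, 50 nM and 100 nM libraries, with bars for the level and lines for the 95% Poisson interval. GABARAP steps down from DMSO to 100 nM (1450, 1215 and 1078 counts), MAP1LC3B is higher only at 100 nM (767, 755 and 924 counts) and MAP1LC3B2 is lowest there (228, 208 and 173 counts).

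The cargo receptors had a summed log2 ratio of 0.11 (0.07 to 0.15) at 100 nM and 0.03 at 50 nM. The sum rests on 2 of the 5 genes, since the median ratio of the group at 100 nM was 0.03. NBR1 (Entrez 4077; chromosome 17, 41322498 to 41363707), a receptor for ubiquitinated aggregates and peroxisomes, had 1650, 1739 and 2061 counts. It was highest at 100 nM, with a log2 ratio of 0.26 (0.17 to 0.36) to DMSO, and did not pass at 50 nM (0.11). CALCOCO2 (Entrez 10241; chromosome 17, 46908372 to 46942229), which encodes NDP52, a receptor for bacteria and for mitochondria marked by PINK1, had 2317, 2590 and 2872 counts. It rose in both pyrvinium libraries against DMSO, by 0.19 at 50 nM and 0.25 (0.17 to 0.33) at 100 nM.

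SQSTM1 encodes p62, the receptor that is itself degraded by autophagy, and had 1655, 1488 and 1627 counts. Its log2 ratio was -0.08 (-0.18 to 0.02) at 100 nM and -0.12 at 50 nM, and neither passed. TAX1BP1, a receptor that clears aggregates, had 3822, 3588 and 4049 counts and a ratio of 0.03 at 100 nM. OPTN, the receptor that recruits TBK1, was barely present, with 29, 32 and 25 counts and an interval from -1.10 to 0.55. The intervals of the receptor sum and the ATG8 sum at 100 nM do not overlap, so these sums lay on opposite sides of 0 in this pair of libraries. GABARAP holds much of the fall of the ATG8 sum, and the receptor sum rests on NBR1 and CALCOCO2. Within each group the genes nevertheless differed in sign.

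The 2 mitophagy genes of the set showed no difference that the counts could resolve. PINK1, the kinase that accumulates on depolarised mitochondria, had 240, 235 and 267 counts and a log2 ratio of 0.10 at 100 nM. FUNDC1, a receptor in the outer mitochondrial membrane, had 302, 309 and 309 counts and a ratio of -0.02. The sum of both gave 0.03, with an interval from -0.14 to 0.20. In a longer list of 20 mitophagy and selective autophagy genes outside the set, 18 were tested at 100 nM, of which 4 were higher and 4 lower, shares near the 21.1% and 22.0% of all tested genes, with a median of -0.03 and a summed ratio of 0.05, of opposite sign. The 4 higher genes, named after their values were seen, were the mitophagy receptor BCL2L13 (0.48), the endoplasmic reticulum receptors CCPG1 (0.41) and RTN3 (0.14) and the ferritin receptor NCOA4 (0.27). The 4 lower ones were the mitophagy receptors BNIP3 (-0.34) and FKBP8 (-0.12), the mitochondrial phosphatase PGAM5 (-0.12) and the endoplasmic reticulum receptor SEC62 (-0.11).

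Of the upstream AMPK genes, only PRKAG1 passed. It encodes the gamma 1 subunit, which binds AMP, and its counts were 1670, 1843 and 2160. The values rose with dose, by 0.18 at 50 nM and 0.31 (0.22 to 0.41) at 100 nM on the log2 scale, and the doses differed from each other. PRKAA1, the catalytic alpha 1 subunit, had 1598, 1457 and 1631 counts (ratio -0.03 at 100 nM), and PRKAB1, the scaffold beta 1 subunit, had 719, 761 and 813 (0.12); neither passed. The sum of the 3 subunits gave 0.15 (0.09 to 0.21) at 100 nM. The isoforms PRKAA2 and PRKAG3 were listed at 0 in all libraries, while PRKAB2 had 329, 315 and 346 counts and PRKAG2 had 596, 543 and 624. In the list of 16 other AMPK and mTORC1 genes, 14 were tested at 100 nM, 5 were higher (CAMKK2, MTOR, MLST8, TSC1 and RHEB) and 0 were lower, against 21.1% higher and 22.0% lower of all tested genes, and the median was 0.07. These names were chosen after their values were seen. CAMKK2 activates AMPK, MTOR and MLST8 are subunits of mTORC1, RHEB activates that complex and TSC1 restrains it.

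ULK1 (Entrez 8408; chromosome 12, 132379279 to 132407707), the kinase that starts autophagosome formation, differed at the lower dose only. Its counts were 586 (DMSO), 426 (50 nM) and 578 (100 nM). The 50 nM library was the low one, with a log2 ratio of -0.43 (-0.61 to -0.24) to DMSO and of 0.35 (0.17 to 0.53) for 100 nM against 50 nM, while 100 nM against DMSO gave -0.08 (-0.25 to 0.09). At 50 nM, 13.1% of all tested genes had a larger absolute ratio. That library also held the 16 HBB counts, whose part in the result was not tested. The partners of ULK1 showed smaller ratios. ATG13, the regulatory subunit, had 2706, 2727 and 2792 counts, RB1CC1, the scaffold FIP200, had 4043, 3723 and 4077, and ATG101, which stabilises ATG13, had 646, 589 and 636. Of these, RB1CC1 alone passed, at 50 nM (-0.08).

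In the class III PI3-kinase complex, BECN1 and PIK3R4 moved in opposite directions. BECN1, which encodes the scaffold Beclin 1, had 1620, 1814 and 1825 counts and rose by 0.20 at 50 nM and 0.11 (0.02 to 0.21) at 100 nM. Its call at 100 nM was close to the threshold. PIK3R4, which encodes the VPS15 subunit that anchors the lipid kinase, had 1572, 1287 and 1326 counts and log2 ratios of -0.25 and -0.30 (-0.41 to -0.20), both passing. The kinase gene PIK3C3 (1229, 1106 and 1200 counts), ATG14, which directs the complex to autophagosome formation (452, 417 and 424), and UVRAG, which directs it to endosomes (929, 825 and 890), did not pass. The group sum gave -0.09 (-0.14 to -0.04) at 100 nM.

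Among the membrane supply genes, WIPI2 and ATG9A were lower at 100 nM. WIPI2 (chromosome 7, 5229835 to 5273486) encodes the reader of phosphatidylinositol 3-phosphate that recruits ATG16L1, and it had 2014, 1609 and 1634 counts. Both pyrvinium libraries were below DMSO and near each other, with log2 ratios of -0.29 and -0.36 (-0.45 to -0.26). ATG9A, the scramblase of the seed vesicles, had 775, 682 and 714 counts and a ratio of -0.18 at 100 nM, close to the threshold. ATG2A (605, 586 and 658) and ATG2B (999, 986 and 1051) had ratios of 0.06 and 0.02. The sum of the group was -0.17 (-0.23 to -0.11) while its median was 0.02, because WIPI2 holds much of the sum. WIPI1 had 20, 22 and 24 counts, too few to resolve a difference.

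The conjugation machinery was split. ATG3, the E2-like enzyme that transfers ATG8 to lipid and the highest gene of the set, had 2778, 2299 and 2340 counts, and it fell in both pyrvinium libraries, with log2 ratios of -0.24 at 50 nM and -0.30 (-0.38 to -0.22) at 100 nM. ATG5, to which ATG12 is covalently joined, had 2087, 1854 and 1912 counts and ratios of -0.14 and -0.18. ATG10, the E2-like enzyme for ATG12, had the highest ratio of the set at 100 nM, 0.44 (0.11 to 0.78), on 130, 152 and 184 counts. ATG4B, the protease that primes ATG8 proteins, rose by 0.14 at 100 nM (1125, 1105 and 1288 counts), close to the threshold.

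ATG7, the E1-like enzyme of both systems, had 947, 1065 and 1069 counts and passed at 50 nM (0.20) but not at 100 nM (0.12). ATG12 (1314, 1300 and 1466 counts) and its partner ATG16L1 (1077, 1012 and 1104) did not pass in either comparison with DMSO. The sum of the 7 genes was -0.07 (-0.11 to -0.03) at 100 nM and the median was 0.10, of opposite sign, since ATG3 and ATG5 carry many of the counts. Taking the ULK1, PI3-kinase, membrane supply and conjugation groups as the core ATG machinery, 21 of 22 genes were tested. Of these 21, 3 were higher and 5 lower at 100 nM, beside 21.1% and 22.0% of all tested genes. At 50 nM, 2 were higher and 6 lower, beside 14.3% and 13.9% of all tested genes. The share of lower core genes at 50 nM was thus above that of all tested genes, and the share of higher ones below. Of 24 core autophagy genes outside the set, 21 were tested at 100 nM, 6 were higher and 5 lower (21.1% and 22.0% of all tested genes), and the median ratio was -0.01. TECPR1, which links autophagosomes and lysosomes, was the only gene of that list past 1.5-fold, with 291, 381 and 459 counts (0.60).

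**Figure D5:**
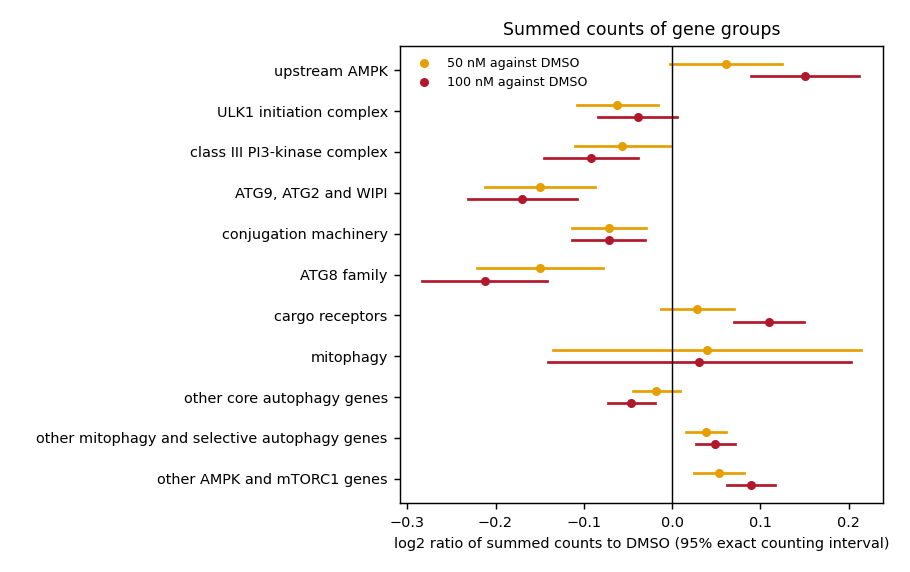
Log2 ratio of the summed counts of each gene group to the DMSO library at 50 nM (orange) and 100 nM (red), with 95% exact counting intervals, for the 8 groups of the set and 3 lists outside it. At 100 nM the ATG8 sum is lowest (-0.21), and the intervals of the AMPK (0.15) and receptor (0.11) sums lie above 0. So do those of the lists of other AMPK and mTORC1 genes (0.09) and other mitophagy and selective autophagy genes (0.05).

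Dose and order were uneven over the set. The 50 nM level lay between those of DMSO and 100 nM for 20 of 35 genes. For 10 genes it was the lowest of the 3 (PRKAA1, ULK1, RB1CC1, ATG101, PIK3C3, UVRAG, ATG2A, ATG16L1, SQSTM1 and TAX1BP1) and for 5 the highest (ATG13, BECN1, ATG7, OPTN and FUNDC1). Among these, ULK1 alone passed both at 50 nM against DMSO and between the doses, so the counts do not resolve the other orders. The same orders over all tested genes were not examined. Only for GABARAP and PRKAG1 did all of the comparisons with DMSO and between the doses pass in 1 direction.

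The transcription factors known to act on autophagy genes were examined beside the set. ATF4, the effector of the integrated stress response, had 12788, 16646 and 18669 counts, a log2 ratio of 0.49 at 100 nM, and DDIT3, which encodes CHOP, had 236, 319 and 500 counts, a ratio of 1.02. NFE2L2, the oxidative stress factor, was higher by 0.16. TFEB, the lysosomal factor, had 358, 315 and 314 counts, a ratio of -0.25 that did not pass (adjusted p = 0.0661, exact binomial test), and MITF (-0.28), TFE3 (0.12), FOXO3 (0.07) and ZKSCAN3 (-0.02) did not pass either. FOXO1 had 2, 1 and 7 counts, too few for a test. Of 12 genes of the set listed as ATF4 or CHOP targets from general knowledge, 4 were higher and 4 lower at 100 nM, with a median of 0.04 and a summed ratio of -0.06. Of 4 TFEB targets, 1 was higher and 0 lower, with a median of 0.06 and a summed ratio of -0.02, again of opposite sign. Of 7 FOXO3 targets, 6 were tested, 3 were higher and 1 lower, with a median of 0.11. The background for these lists was 21.1% higher and 22.0% lower over all tested genes, and lists this short are given as a description.

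Promoter letters were read for 33 of the 36 genes from RefSeq (RB1CC1, UVRAG and PINK1 were not analysed here; GRCh38.p14, 40 promoters of 300 bases, 250 before to 50 after the start). On either strand, the CARE letters TGATGNAAN of ATF4 and CHOP were in 0 of 40 and in 2.75% of all 23037 promoters. The CLEAR letters TCACGTGA of TFEB were in 1 promoter, that of ATG3, against 1.25% of all. The E-box CACGTG, which CLEAR contains, was in 2 (ATG3 and ATG14), 5.0% against 8.27%, and the FOXO letters GTAAACA were in 1 (CALCOCO2), against 2.89%. The windows are shown because they lie at genes whose counts are given above, with the motif in capitals. An E-box lay 18 bases before the start of ATG3 (GRCh38.p14, chr3:112561963-112562000, minus strand) and 21 bases before that of ATG14 (chr14:55411831-55411871, minus strand), and the FOXO match lay 226 bases before that of CALCOCO2 (chr17:48830789-48830835, plus strand). ATG3 had another E-box, inside its CLEAR match, which lay past the start and is not shown.
ATG3: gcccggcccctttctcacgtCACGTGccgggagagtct
ATG14: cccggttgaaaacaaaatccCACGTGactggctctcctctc
CALCOCO2: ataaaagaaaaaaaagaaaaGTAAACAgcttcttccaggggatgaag
A match describes letters in this window and is not a site of binding.

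The ratios differed with gene model length, and some gene models overlap other genes. Where the mean reached 100 counts, the median log2 ratio at 100 nM against DMSO was -0.07 for 1544 gene models under 1500 bases, -0.04 for 3479 models of 1500 to 3000 bases and 0.01 for 4956 longer ones. In the set, the 5 genes under 1500 bases (ATG101, ATG3, GABARAP, GABARAPL2 and FUNDC1) all had ratios below 0, with a median of -0.20. The 7 of middle length had none below 0, with a median of 0.14, and 13 of the 20 longer ones were below 0, with a median of -0.04. The part of length in the ratios of GABARAP and ATG3 was not tested. Whether the counting used strand is not given in the sources used here, and gene models on the opposite strand overlap BECN1 (CNTD1, 37.2% of its model, 24, 20 and 31 counts), ATG7 (VGLL4, 31.6%, 1112, 916 and 982 counts) and SQSTM1 (MRNIP, 18.6%, and MGAT4B, 3.15%), so their counts are uncertain to that extent.

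An assumed spread between replicate cultures changes the calls. Under edgeR's exact test and a biological coefficient of variation set to 0.1, 0 genes of the set passed after adjustment in any comparison, and GABARAP and GABARAPL1 had an unadjusted p under 0.05 at 100 nM. All tested genes gave 244 calls at 100 nM under that assumption. With 0.2, 0 genes of the set passed even without adjustment in any comparison, and all tested genes gave 12 calls at 100 nM.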

How the data were processed

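Libraries were made with a stranded poly(A) kit, and the authors aligned paired 75-base reads to hg19 with Rsubread and counted them per Entrez gene with featureCounts. The deposited counts (1 file per library, with gene model length) are raw and not normalized. A further deposited table of the authors' EBSeq comparisons (fold changes, posterior probabilities and condition means) was not used. The treatment text writes the higher dose once as 100 M, while titles give 100 nM. Genes with at least 10 counts in 1 library were tested. Counts were scaled by TMM (edgeR 4.0.16, R 4.3.3), log2 ratios used 0.5 added counts, and p-values and 95% Clopper-Pearson intervals came from a two-sided exact binomial test (scipy 1.17.1) with Benjamini-Hochberg adjustment over all 12879 genes. The test was checked on simulated libraries drawn with counting error only, so that check does not cover spread between cultures. Alternative scalings were total counts and size factors from DESeq2 1.42.0, and a further alternative was an assumed spread in edgeR's exact test. Of 25702 identifiers, 23696 matched a symbol. All 36 genes are named. Of other lists, the rule named genes past 1.5-fold with at least 50 counts, transcription factors and AMPK isoforms, and passing genes of the mitophagy and mTORC1 lists were named after their values were seen. The genes and lists were chosen with earlier results of these data known.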

Additional observations from a re-analysis of the deposited data

How the results depend on the processing

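No paired analysis was possible because each condition has 1 library. The count of genes called at 2-fold stayed at 0 in all 3 comparisons under scaling by total counts, by DESeq2 size factors or by TMM leaving out mitochondrially encoded genes, under no count filter or one of 50 counts, with 5 added counts, and with a coefficient of variation of 0.1 or 0.2 assumed in edgeR's exact test. Most of these settings could not have added a call. The tested ratio nearest to 2-fold was -0.94, and scalings moved ratios by at most 0.00499. Added counts shrink ratios, an assumed spread raises p-values and a filter of 50 counts leaves ratios as they are. Removing the filter only added ULK2, which has few counts. The count of genes called moved with the fold threshold, also by construction: at 100 nM against DMSO to 1 with 1.5-fold and to 15 with none, and with none to 11 at 50 nM against DMSO and to 5 at 100 nM against 50 nM. The median log2 ratio ranged from -0.0257 to -0.0215, from -0.059 to -0.053 and from 0.0175 to 0.0244 in these comparisons. Of 420 single gene values, 417 kept their side of the threshold, and 0 of those that passed under the main setting reversed direction. ATG9A at 100 nM against DMSO lost its call without mitochondrial genes in the scaling (-0.17). Under total counts GABARAPL2 at 50 nM against DMSO (-0.16) and TAX1BP1 at 100 nM against 50 nM (0.09) gained one. The cause was not tested. Depth limits WIPI1, OPTN, GABARAPL1 and ULK2, and with 1 library a condition no spread between cultures was measured.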
